A study of Mus musculus with 54 samples.

Results

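The choroid plexus genes described here are 8 genes of the epithelium that lines the brain ventricles: Ttr, Clic6, Folr1, Aqp1, Otx2, Enpp2, Slc4a5 and Sostdc1. They were taken by symbol, through the Ensembl identifiers of the count files, and all 8 were found among the 54232 genes counted. Polyadenylated RNA was sequenced from mouse tissues, in 54 libraries, after treatment with Cmpd60, a benzamide inhibitor of the histone deacetylases HDAC1 and HDAC2. In the aging experiment, naturally aged male BL6 mice of 20 months received an intraperitoneal injection of 22.5 mg/kg Cmpd60 or of vehicle every day for 14 days. Brain (6 Cmpd60-treated, 6 vehicle), kidney (6 and 5) and heart (5 and 6) were collected, giving 34 libraries. In the dementia model, brain was taken from male APPSWE mice (line APPSWE-1349, BL6 background), which carry a transgene for human amyloid precursor protein with the Swedish mutation, and from control littermates, all at 6 to 7 months. Both genotypes received the same dose or vehicle for 14 days, giving 20 libraries. The promoter of the transgene, the brain region sampled and which tissues came from the same mouse are not given in the sources used here. Aged libraries are named below by the replicate number in their titles, and those of the dementia model by their sample code (s140 and so on).

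The choroid plexus hangs in the ventricles and makes cerebrospinal fluid. Its epithelium moves sodium, chloride, bicarbonate and water from blood to fluid, and it secretes carrier proteins and signals into that fluid. Some of its genes are almost private to it within the brain, while other organs use several of them. Ttr encodes transthyretin, the thyroid hormone and retinol carrier, made by this epithelium and by the liver. Enpp2 encodes autotaxin, a secreted enzyme that makes lysophosphatidic acid, and is also used by oligodendrocytes. Aqp1 is a water channel and Slc4a5 a sodium bicarbonate cotransporter. Folr1 is a folate receptor, and kidney tubules use it and Aqp1 in quantity. Clic6 is a member of the chloride intracellular channel family. Sostdc1 is a secreted antagonist of BMP and Wnt signals. Otx2 is the homeodomain transcription factor that specifies and maintains this epithelium.

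Because 1 of the 8 is a transcription factor and the other 7 are genes of the cell type it specifies, the upstream sequences at hand were searched for the short bicoid-class motif TAATCC, which OTX2 can bind, on both strands (its reverse complement is GGATTA). RefSeq promoter sequences on GRCm38.p6 were at hand for 3 members, in 6 windows of 250 bases ending at an annotated start: 1 of Aqp1, 4 of Otx2 and 1 of Slc4a5. Ttr, Clic6, Folr1, Enpp2 and Sostdc1 had no entry. The window of Otx2 that held the motif is printed with both other genes' windows for comparison, each 5′ to 3′ on the gene's strand, with the motif in capitals.
Otx2, chr14:48665110-48665359, minus strand: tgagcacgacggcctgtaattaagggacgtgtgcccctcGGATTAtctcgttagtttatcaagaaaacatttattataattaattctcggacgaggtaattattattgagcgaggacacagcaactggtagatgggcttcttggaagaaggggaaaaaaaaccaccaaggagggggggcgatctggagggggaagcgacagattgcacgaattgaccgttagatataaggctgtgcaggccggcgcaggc
Aqp1, chr6:55336049-55336298, plus strand: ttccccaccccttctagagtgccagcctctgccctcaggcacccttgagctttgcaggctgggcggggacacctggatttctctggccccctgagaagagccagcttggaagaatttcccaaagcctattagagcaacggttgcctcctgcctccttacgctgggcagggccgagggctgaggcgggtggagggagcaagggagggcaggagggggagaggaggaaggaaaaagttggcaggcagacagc
Slc4a5, chr6:83237125-83237374, plus strand: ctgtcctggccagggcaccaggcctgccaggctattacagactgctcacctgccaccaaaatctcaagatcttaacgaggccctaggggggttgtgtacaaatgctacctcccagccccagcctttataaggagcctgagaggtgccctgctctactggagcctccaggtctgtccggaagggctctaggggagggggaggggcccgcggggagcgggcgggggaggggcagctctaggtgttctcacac
The motif stood in 1 of the 6 windows, in the reverse orientation, with its first base 211 bases upstream of the start, and the other 5 windows lacked these letters. The motif was held by 6.25% of all 32851 windows at hand (7.21% of 27025 genes), so 1 in 6 is a description of these windows and says nothing about binding.

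Each library held 23584609 to 57430113 counts assigned to genes (median 28114298), and 15044 to 28017 genes had at least 1 count. In the aged brain, the Cmpd60-treated libraries had more counts (median 38855584.5 against 28188597.5) and more genes detected (25850 to 28017 against 24939 to 25861) than vehicle. In the dementia model, 5 libraries had fewer than 17000 genes detected: s140 and s146 (APPSWE, vehicle), s141 (APPSWE, Cmpd60), s155 (littermate, vehicle) and s152 (littermate, Cmpd60). For the differences described in the dementia model, values without these 5 are given too. More genes were detected with Cmpd60 in this model as well: a median of 22604.5 against 18320 in APPSWE (s139 counted as vehicle) and 23014 against 19669 in littermates. Without the 5, the APPSWE libraries in the fits had 22165 to 23402 genes with Cmpd60 and 18518 to 20277 with vehicle. Leaving the 5 out thus does not make these groups alike in genes detected. Mouse App did not separate the genotypes (2247 ± 115 CPM in 5 vehicle-treated APPSWE libraries against 2156 ± 126 in 5 littermates, SD; edgeR adjusted p = 0.886), so these counts do not check the genotype labels. Library s139 is vehicle in its labels and compound in a column heading of the study, and was left out of the fits. For kidney, 1 label field gives the treatments the other way round from the titles and source names, which were followed here. If that field were right, every difference between Cmpd60 and vehicle in kidney would change sign, and the brain minus kidney response would change with it.

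All 8 genes were detected in every aged brain library. Levels are given as CPM, counts scaled to a common library total, and, where genes are compared with each other, as CPM per kilobase of exon (CPM per kb). On the second scale, Ttr stood highest in the aged brain at 463 ± 157 (SD, n = 12), followed by Enpp2 at 148 ± 39.3 and Clic6 at 6.55 ± 1.99. Aqp1 (3.13 ± 1.09), Sostdc1 (2.74 ± 1.06), Otx2 (2.28 ± 0.556) and Folr1 (2.20 ± 0.735) came next and did not differ beyond their spread, and Slc4a5 was lowest at 1.46 ± 0.593. Kidney had another order: Aqp1 (419 ± 79.5, n = 11), Folr1 (139.97 ± 17.5) and Enpp2 (125 ± 38.5) led, the last 2 within their spread of each other. Sostdc1 (40.8 ± 9.61) and Ttr (26.3 ± 14.8) followed, and Clic6 (0.448 ± 0.343) and Slc4a5 (0.244 ± 0.0574) were near the bottom. In heart, Aqp1 (87.6 ± 22.1, n = 11) and Enpp2 (7.22 ± 0.829) were the only members above 1 CPM per kb.

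**Figure D1:**
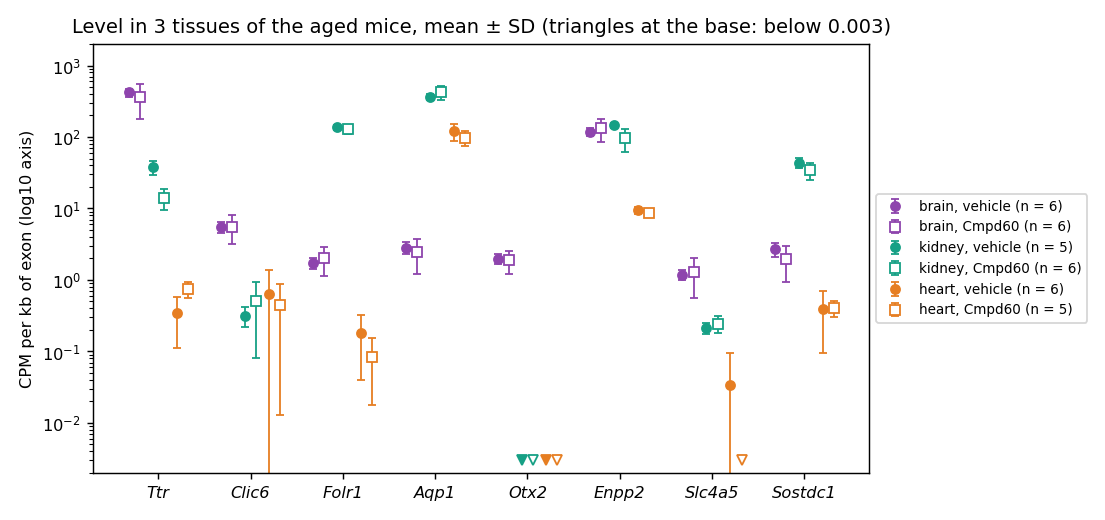
Level of each choroid plexus gene in brain, kidney and heart of the aged mice, in CPM per kb of exon on a log10 axis, with all 34 libraries normalised together. Points are group means, bars are SD, filled symbols are vehicle and open symbols Cmpd60, and triangles mark means below 0.003; Otx2 sits at the base in kidney and heart, while Folr1, Aqp1 and Sostdc1 are higher in kidney than in brain.

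The comparison of the vehicle-treated brain with the vehicle-treated kidney asked which members are brain genes in these mice. In 1 fit over the 34 aged libraries, 7 of the 8 members passed an adjusted p of 0.05 (edgeR's quasi-likelihood test with Benjamini-Hochberg adjustment over all genes), where 72.5% of the 27105 genes tested did, and 74.4% had an unadjusted p under 0.05. Higher in brain were Clic6, by 17.6-fold (log2 difference 4.14 ± 0.57 SE, adjusted p = 4.75e-08), Ttr, by 11.1-fold (3.47 ± 0.28, adjusted p = 1.78e-13), and Slc4a5, by 5.59-fold (2.48 ± 0.44, adjusted p = 5.44e-06). Higher in kidney were Aqp1, by 128-fold (log2 difference -7.00 ± 0.28), Folr1, by 78.8-fold (-6.30 ± 0.25), and Sostdc1, by 15.97-fold (-3.997 ± 0.28), with the largest adjusted p of these 3 at 2.08e-15. For these 6 genes, every brain library lay on 1 side of every kidney library, as for 59.6% of all genes tested. Enpp2 was the 1 member that did not pass, at 414 ± 50.1 CPM in brain and 504 ± 47.4 in kidney. Its log2 difference was -0.29 (nominal 95% interval -0.67 to 0.10, by a normal approximation from the SE, adjusted p = 0.191). Otx2 had 0 counts in all 11 kidneys, so that its brain level of 6.76 CPM was at least 357-fold above the limit that 3 counts over the 5 vehicle-treated kidneys allow. Among 11 hearts it had 1 count in all, in replicate 68. Kidney thus held Aqp1, Folr1 and Sostdc1 in quantity with no Otx2 count, and with at most 5.52 CPM of Clic6 and 1.85 CPM of Slc4a5 in any library.

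In the aged brain, the question was whether Cmpd60 changed these genes. None of the 8 passed the test with edgeR, which called 0.0205% of the 24438 genes tested. None had an unadjusted p under 0.05 with edgeR, DESeq2 or limma-voom, against 13.8% of all genes with edgeR, and for none were the groups apart without overlap, against 0.925%. The treated and vehicle groups had unlike spreads, with Cmpd60-treated libraries both far below and above the vehicle-treated ones. Ttr was 192 CPM in replicate 34, 363 in 36, 363 in 37, 527 in 33, 826 in 35 and 834 in 38, against a lowest value of 492, a median of 638 and a highest of 695 in the vehicle group. The means were 518 ± 264 and 610 ± 74.0 CPM (SD, n = 6 each), a log2 fold change of -0.24 ± 0.24 (SE; adjusted p = 0.717). Thus 3 Cmpd60-treated brains lay below every vehicle-treated brain and 2 lay above.

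The other secreted products had the same wide treated range. Enpp2 ran from 294 through a median of 548 to 733 CPM with Cmpd60 and from 386 through 505 to 546 with vehicle (log2 fold change 0.12 ± 0.18). Sostdc1 ran from 0.851 through 3.67 to 6.85 CPM with Cmpd60 and from 4.08 through 5.37 to 7.67 with vehicle. It had the largest difference of the 8 (log2 fold change -0.51 ± 0.28, nominal 95% interval -1.06 to 0.05, edgeR adjusted p = 0.439). For Sostdc1, 4 of 6 Cmpd60-treated brains lay below every vehicle-treated one.

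Among the transport genes, Slc4a5 spread widest within the treated group, from 2.25 through 8.53 to 15.6 CPM against 5.97 through 8.38 to 9.60 (log2 fold change 0.11 ± 0.29). Aqp1 ran from 3.54 through 6.62 to 12.8 CPM against 6.04 through 9.45 to 10.2 (-0.21 ± 0.25). Clic6 covered 12.8 to 40.02 CPM (median 25.6) against 21.3 to 34.2 (median 25.2; log2 fold change -0.02 ± 0.21), and Folr1 covered 2.59 to 8.51 (median 4.91) against 3.66 to 5.80 (median 4.53; 0.19 ± 0.22). The transcription factor Otx2 had the narrowest treated range, at 4.09 to 10.1 CPM (median 7.66) against 6.10 to 9.76 (median 8.16; -0.11 ± 0.18). For each of these 5 genes the treated values lay on both sides of the vehicle range. Depth moved with treatment in these brains. When the detected gene number entered the fit as a term all 8 members were lower with Cmpd60, against 49.3% of all genes. Their values ran from -0.41 for Enpp2 to -1.19 for Sostdc1, with Ttr at -1.11. The groups barely overlapped in detected gene number, so that fit cannot fully separate treatment from it. None of the 8 was called in that fit (adjusted p 0.319 to 0.639), nor was any gene, and 7 of them, all but Enpp2, had an unadjusted p under 0.05, against 7.83% of all genes in the same fit.

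All 8 genes had a wider range with Cmpd60, and for 7 of them, all but Sostdc1, the Cmpd60 range enclosed the vehicle range. Highest over lowest library came to 2.47 to 8.05-fold with Cmpd60 and 1.41 to 1.88-fold with vehicle. The SD of log2 CPM was larger with Cmpd60 by a factor of 2.40 to 4.44 over the members (median 2.82). At a factor of 2 or more stood all 8 members and 1580 of the 15424 genes whose mean reached 1 CPM, 10.2%, and the median factor over those genes was 0.996. The difference in spread was not tested. It rested on the same libraries each time: replicate 34 was the lowest of the 12 brains for all 8 genes, and replicate 38 the highest for 6, the exceptions being Otx2 (replicate 35) and Sostdc1 (vehicle replicate 30). Among the treated brains, replicate 34 also had the fewest genes detected (25850) and replicate 38 the most (28017). Between them stood replicates 36 (26007), 37 (26176), 33 (26475) and 35 (27044). The part of detected gene number in the spread was not tested.

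**Figure D2:**
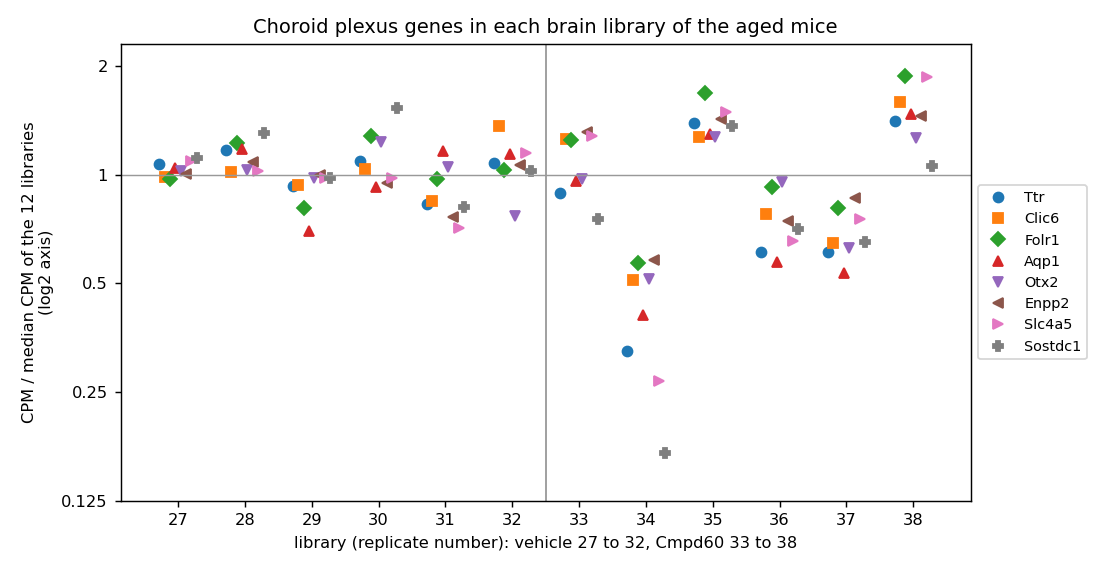
Each choroid plexus gene in each of the 12 aged brain libraries, as CPM divided by that gene's median over the 12 libraries, on a log2 axis; symbols are genes, replicates 27 to 32 are vehicle and 33 to 38 Cmpd60. All 8 symbols lie below 1 in replicates 34, 36 and 37 and above 1 in replicates 35 and 38, and they lie on both sides of 1 in replicate 33.

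In 7 of the 12 libraries the 8 genes lay on the same side of their medians. All 8 were below their median over the 12 brains in replicates 34, 36 and 37 (Cmpd60) and 29 (vehicle), and all 8 were above it in replicates 35 and 38 (Cmpd60) and 28 (vehicle). In the other 5 they were split, with 4 of the 8 above the median in replicate 33 (Cmpd60) and 6, 5, 2 and 7 above it in vehicle replicates 27, 30, 31 and 32. Likeness to Ttr was measured as Pearson's r of log2 CPM over the 12 libraries, with p from 100000 permutations (smallest possible 1e-05) and adjustment over all 24437 other genes. The transport genes gave r = 0.939 for Slc4a5 (rho = 0.811, adjusted p = 0.244), 0.914 for Aqp1 (rho = 0.832, adjusted p = 0.244), 0.899 for Clic6 (rho = 0.860, adjusted p = 0.183) and 0.860 for Folr1 (rho = 0.825, adjusted p = 0.345). The secreted products gave 0.927 for Sostdc1 (rho = 0.881, adjusted p = 0.244) and 0.865 for Enpp2 (rho = 0.846, adjusted p = 0.345), and Otx2 gave 0.844 (rho = 0.783, adjusted p = 0.529). The 7 unadjusted permutation p-values ran from 3e-05 to 0.00116 for r and from 0.00029 to 0.00383 for rho. None passed the adjustment, and 0% of all genes did: at this number of resamples at least 5 genes at the smallest p would be needed for any to pass.

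Ranked among the 24437 genes by r with Ttr, the members stood at 4 (Slc4a5), 6 (Sostdc1), 7 (Aqp1), 11 (Clic6), 22 (Enpp2), 26 (Folr1) and 35 (Otx2). Without replicates 34 and 36, the 2 libraries farthest from the median of Ttr, r was 0.709 to 0.829. Taken as deviations from the group means, r was 0.837 to 0.969. Within the 6 Cmpd60-treated brains alone r was 0.932 to 0.990 (median 0.962), and within the 6 vehicle-treated brains it was -0.04 for Otx2 to 0.844 for Enpp2 (median 0.649). Over all 28 pairs of members r ran from 0.669 (Otx2 and Enpp2) to 0.951 (Enpp2 and Slc4a5), with a median of 0.845. The points of every pair share the same 12 libraries. Of the 6 treated brains, the one with the lowest Ttr had the fewest genes detected (replicate 34, 25850). The one with the highest had the most (replicate 38, 28017). No r was adjusted for detected gene number, and its part in these r was not tested. In bulk tissue fewer choroid plexus cells and less RNA per cell cannot be told apart.

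The genes outside the 8 with the pattern most like Ttr, at a mean of 1 CPM or more, were 1500015O10Rik (now Ecrg4; r = 0.972, rho = 0.965), Cldn2 (0.962, rho = 0.902), Steap1 (0.957, rho = 0.881), Wdr86 (0.928, rho = 0.811) and Kcne2 (0.912, rho = 0.811). Cldn2 is a tight junction protein of leaky epithelia and Kcne2 a potassium channel subunit. Of 35 other choroid plexus epithelial genes listed, 14 were among the 100 genes nearest to Ttr, with a median r of 0.723 over the list against 0.0085 over all genes. The list was chosen with earlier results of these data known, so its closeness to Ttr is not an outside check. With Cmpd60, none of the 35 was called, and 22 were higher and 13 lower. At an unadjusted p under 0.05 (edgeR) stood 4 of the 35, against 13.8% of all genes: Lbp and Car14 higher, Trpm3 and Cox8b lower. Their summed level was 447 to 741 CPM (median 584) with Cmpd60 and 532 to 638 (median 591) with vehicle, again wider with treatment. Ependymal markers, which mark the neighbouring cells of the ventricle wall, summed to 28.3 to 50.01 CPM against 32.6 to 44.0, with none of 10 called. Oligodendrocyte markers, from cells that also use Enpp2, summed to 4867 to 7067 CPM against 5685 to 6895. All markers of these 3 lists had counts in both groups. Their part in the spread of the 8 genes was not tested.

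In the kidney, 1 of the 7 members tested was called, where 0.3% of the 20698 genes tested were. At an unadjusted p under 0.05 stood 2 of the 7, against 11.3% of all genes. Ttr was lower with Cmpd60: 16.3, 12.0, 15.6, 14.3, 25.7 and 24.5 CPM in replicates 50 to 55, against 54.6, 50.9, 50.5, 58.9 and 29.2 in vehicle replicates 45 to 49. All 6 treated kidneys lay below all 5 vehicle-treated ones (groups of 2.3% of all genes did not overlap), although vehicle replicate 49 stood close to the treated range. The means were 18.1 ± 5.63 and 48.8 ± 11.5 CPM (SD), a 2.70-fold lower level. The log2 fold change was -1.43 ± 0.21 (SE, nominal 95% interval -1.84 to -1.03, adjusted p = 0.00679, edgeR). Ttr was called in each of 6 other settings, DESeq2, limma-voom and a fit with a term for detected gene number among them (log2 fold change -1.43 to -1.37, adjusted p 5.99e-08 to 0.0353), and with each of the 11 libraries left out in turn (-1.57 to -1.34, adjusted p 0.00329 to 0.0328).

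Enpp2 pointed the same way without passing: 376, 307, 533, 415, 301 and 166 CPM in replicates 50 to 55 against 480, 612, 508, 519 and 548 in 45 to 49. Of the 6 treated kidneys 5 lay below all vehicle-treated ones, and the log2 fold change was -0.61 ± 0.21 (adjusted p = 0.271). Sostdc1 gave -0.33 ± 0.16 (63.9 ± 17.1 against 80.5 ± 12.4 CPM, adjusted p = 0.448). The 2 members that kidney tubules use most did not follow: Aqp1 was 857 to 1480 CPM with Cmpd60 and 883 to 1116 with vehicle (0.22 ± 0.14, adjusted p = 0.592), and Folr1 was 225 to 360 CPM against 303 to 373 (-0.09 ± 0.11, adjusted p = 0.808). Clic6 (0.70 ± 0.48) and Slc4a5 (0.20 ± 0.28) sat at 0.518 to 5.52 and 0.805 to 1.85 CPM over all 11 kidneys. The difference of Clic6 rested on treated replicate 54 and was 0.14 without it. Treated replicate 55 was the lowest of the 11 for Folr1, Aqp1, Enpp2 and Slc4a5.

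**Figure D3:**
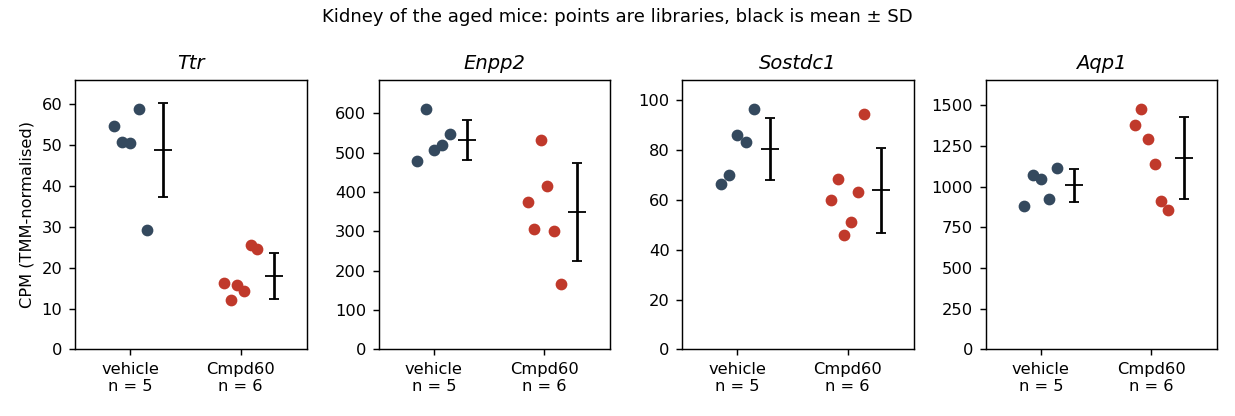
Ttr, Enpp2, Sostdc1 and Aqp1 in each kidney library of the aged mice, in TMM-normalised CPM from 0; blue points are the 5 vehicle-treated and red points the 6 Cmpd60-treated libraries, and black bars are mean ± SD. For Ttr all treated libraries (12.0 to 25.7 CPM) lie below all vehicle-treated ones (29.2 to 58.9 CPM), while the groups overlap for the other 3 genes.

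As Ttr is also a liver product, other lists were read in the same kidneys. Of 33 other choroid plexus genes tested none was called (12 higher, 21 lower). At an unadjusted p under 0.05 (edgeR) stood 8 of the 33, against 11.3% of all genes. Of 9 ion transport genes of fluid secretion, 8 were tested and 1 called, Slc12a2, the sodium potassium chloride cotransporter (log2 fold change -0.51 ± 0.10, adjusted p = 0.0481). Of 10 ependymal markers, 6 were tested and 1 called, Rarres2, the adipokine chemerin, which many tissues make (0.91 ± 0.17, adjusted p = 0.0320). Of 10 hepatocyte markers, 9 were tested, 5 were higher and 4 lower (median 0.70), and 1 was called lower, Hrg, a plasma glycoprotein (-1.92 ± 0.33, adjusted p = 0.0197). At an unadjusted p under 0.05 stood 6 of the 9, 4 of them higher: Fgb (1.66 ± 0.53), Apoc3 (1.44 ± 0.38), Apoa1 (1.36 ± 0.56) and Serpina1a (0.70 ± 0.23), with adjusted p of 0.143 to 0.382. Alb, for albumin, the most abundant liver transcript, was at 9.02 ± 3.28 CPM with Cmpd60 and 9.80 ± 0.802 with vehicle. The summed level of the list was 569 to 1306 CPM against 1298 to 1573, most of it Cyp2e1, a cytochrome that kidney tubules also use (981 ± 280.1 against 1407 ± 125). Ependymal markers, all 6 of those tested higher, summed to 66.8 to 133 CPM with Cmpd60 and 46.8 to 64.4 with vehicle. Proximal tubule markers summed to 3770 to 9944 CPM with Cmpd60 and 7461 to 9095 with vehicle, and distal nephron markers to 4863 to 8585 against 7194 to 9417. Their part in the difference in Ttr was not tested.

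The response of the brain minus that of the kidney was fitted over the 34 aged libraries. On the log2 scale it was 1.22 ± 0.35 for Ttr (nominal 95% interval 0.54 to 1.91, edgeR adjusted p = 0.175). For Enpp2 it was 0.76 ± 0.27 (edgeR adjusted p = 0.317). Neither passed the adjustment, nor did another of the 7 members with a value. Of all genes 0.0885% were called, and 10% had an unadjusted p under 0.05. DESeq2 and limma-voom also called none of the 7, each with 2 at an unadjusted p under 0.05.

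Heart gave 6 members with enough counts to test. None was called by limma-voom or by edgeR, which called 1.18% of the 19452 genes tested. DESeq2 gave an adjusted p for 3 of the 6, not for Ttr, Folr1 or Sostdc1, and called none of the 3. None of the 6 had an unadjusted p under 0.05 with edgeR, against 13.5% of all genes, and 1 had with limma-voom. The groups overlapped for each of the 6, while those of 2.69% of all genes did not. Ttr was barely present, at 0.414, 0.722, 0.861, 0.787 and 0.754 CPM in Cmpd60-treated replicates 68 to 72 and at 0.0713 to 0.662 (median 0.345) with vehicle, so 4 of 5 treated hearts lay above all vehicle-treated ones (log2 fold change 1.05 ± 0.50, adjusted p = 0.375). Aqp1, which heart capillaries use, was 153.96 to 270.4 CPM against 165 to 337 (-0.32 ± 0.16, adjusted p = 0.404), and Enpp2 was 19.5 to 26.8 against 20.6 to 28.8 (-0.13 ± 0.10). Folr1 (-1.09 ± 0.80), Clic6 (-0.56 ± 0.67) and Sostdc1 (0.03 ± 0.48) had wide errors. Of 28 other choroid plexus genes tested in heart 1 was called, Car14, a carbonic anhydrase (0.84, adjusted p = 0.00484).

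**Figure D4:**
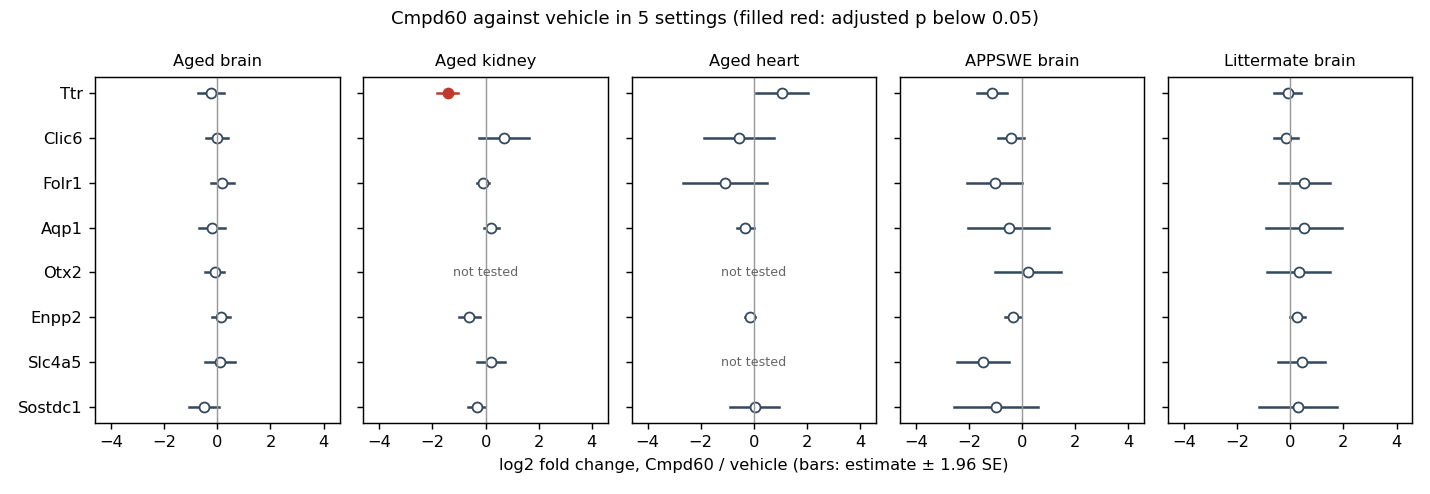
Log2 fold change of Cmpd60 over vehicle for the 8 choroid plexus genes, in the 3 aged tissues and in APPSWE and littermate brains. Bars are nominal 95% intervals (a normal approximation from the SE), narrower than the edgeR test would give. A filled red point has an adjusted p below 0.05. The only filled point is Ttr in the aged kidney, at -1.43.

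In the dementia model, the same questions were asked of brains at 6 to 7 months. On CPM per kb the order of levels over all 20 libraries was led by Ttr (518 ± 234, SD), Enpp2 (173 ± 37.9) and Clic6 (6.52 ± 1.89), the same leading 3 as in the aged brain, and Sostdc1, Aqp1, Folr1, Otx2 and Slc4a5 lay between 3.66 and 2.23, within their spread of each other. With vehicle, Ttr in APPSWE brains was 826, 343, 863, 569 and 1439 CPM in s140, s142, s144, s145 and s146. With Cmpd60 it was 515, 349, 313 and 297 in s141, s143, s147 and s148. In littermates it was 488, 1096, 675, 473 and 680.3 with vehicle (s149, s150, s151, s154 and s155) and 927, 697, 524, 579 and 477 with Cmpd60 (s152, s153, s156, s157 and s158). The treated APPSWE brains were thus the lowest group, with 2 of 4 below all vehicle-treated APPSWE brains, and the littermate groups overlapped throughout. Library s139 held 497 CPM.

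Cmpd60 against vehicle in APPSWE brains gave no call among the 8 members with edgeR, DESeq2 or limma-voom, where edgeR called 0% of the 23194 genes tested. At an unadjusted p under 0.05 stood 3 members with edgeR, against 9.46% of all genes, 4 with DESeq2 and 3 with limma-voom. Ttr had the smallest p of the 8, with a log2 fold change of -1.13 ± 0.28 (SE; 368 ± 99.99 against 808 ± 411 CPM, SD; adjusted p = 0.444). With no filter on low counts its adjusted p was 0.00617, over 10 other settings it was 0.27 to 0.858, and with each library left out in turn 0.115 to 0.674. Without the 5 libraries of fewest genes the log2 fold change of Ttr was -0.89 (adjusted p = 0.27). It was -1.04 with s139 counted as vehicle or as Cmpd60, and -0.82 without s146. With detected gene number as a term in the edgeR fit it was -0.83 (adjusted p = 0.319). Slc4a5, the bicarbonate cotransporter, was 5.19, 7.64, 5.13 and 7.60 CPM in the treated APPSWE brains, all below the vehicle-treated 14.1, 8.43, 12.6, 9.56 and 44.6 (groups of 2.31% of all genes did not overlap), with a log2 fold change of -1.48 ± 0.50 (adjusted p = 0.444). Without the 5 libraries of fewest genes it was -0.59 (adjusted p = 0.538). Enpp2 was 531, 522, 465.8 and 518 CPM against 594, 462, 712, 587 and 866 (-0.34 ± 0.16, adjusted p = 0.509, and -0.23 without the 5).

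Of the remaining members, Folr1 gave -1.03 ± 0.53 (3.73 to 5.97 against 4.07 to 13.8 CPM, adjusted p = 0.558) and Clic6 -0.42 ± 0.25, and without the 5 libraries -0.77 and -0.17. Aqp1 and Sostdc1 turned on 2 vehicle-treated libraries, and Otx2 on the first of them. Library s140 had 0 counts of Aqp1 and of Sostdc1 and 0.0357 CPM of Otx2, while its Ttr stood at 826 CPM. Library s146 of the same group held the highest Aqp1 (24.3 CPM), Sostdc1 (25.7) and Slc4a5 (44.6) of the 20 brains. The log2 fold changes were -0.51 ± 0.78 for Aqp1, -0.98 ± 0.80 for Sostdc1 and 0.22 ± 0.64 for Otx2, and without the 5 libraries they were 0.24, -0.38 and -0.26. Of the 35 other choroid plexus genes 13 were higher and 22 lower, none called, at a median of -0.24 against 0.03 over all genes. At an unadjusted p under 0.05 (edgeR) stood 3 of the 35, against 9.46% of all genes. On leaving out the 5 libraries 11 were higher and 24 lower, none called, 7 with an unadjusted p under 0.05, at a median of -0.19. The share of all genes under that p was not counted in the smaller fit, so the counts of 3 and 7 cannot be compared.

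In littermates Cmpd60 gave no call among the 8, nor an unadjusted p under 0.05, with edgeR, DESeq2 or limma-voom (by edgeR, 0% of all genes called, 3.67% at an unadjusted p under 0.05). Groups overlapped for each of the 8, and did not for 0.509% of all genes. Ttr differed by -0.09 ± 0.26 (641 ± 179.9 against 682.5 ± 251 CPM) and Enpp2 by 0.27 ± 0.15 (678 ± 159 against 563 ± 115, adjusted p = 0.999). Library s152, 1 of the 5 libraries of fewest genes, held the highest treated values of Ttr, Folr1 (15.8 CPM), Aqp1 (21.3), Otx2 (19.9) and Slc4a5 (36.3). Of the 35 other choroid plexus genes 26 were higher and 9 lower, none called and none at an unadjusted p under 0.05. On leaving out the 5 libraries Ttr differed by -0.26 and Enpp2 by 0.22, and 23 of the 35 genes were higher and 12 lower.

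**Figure D5:**
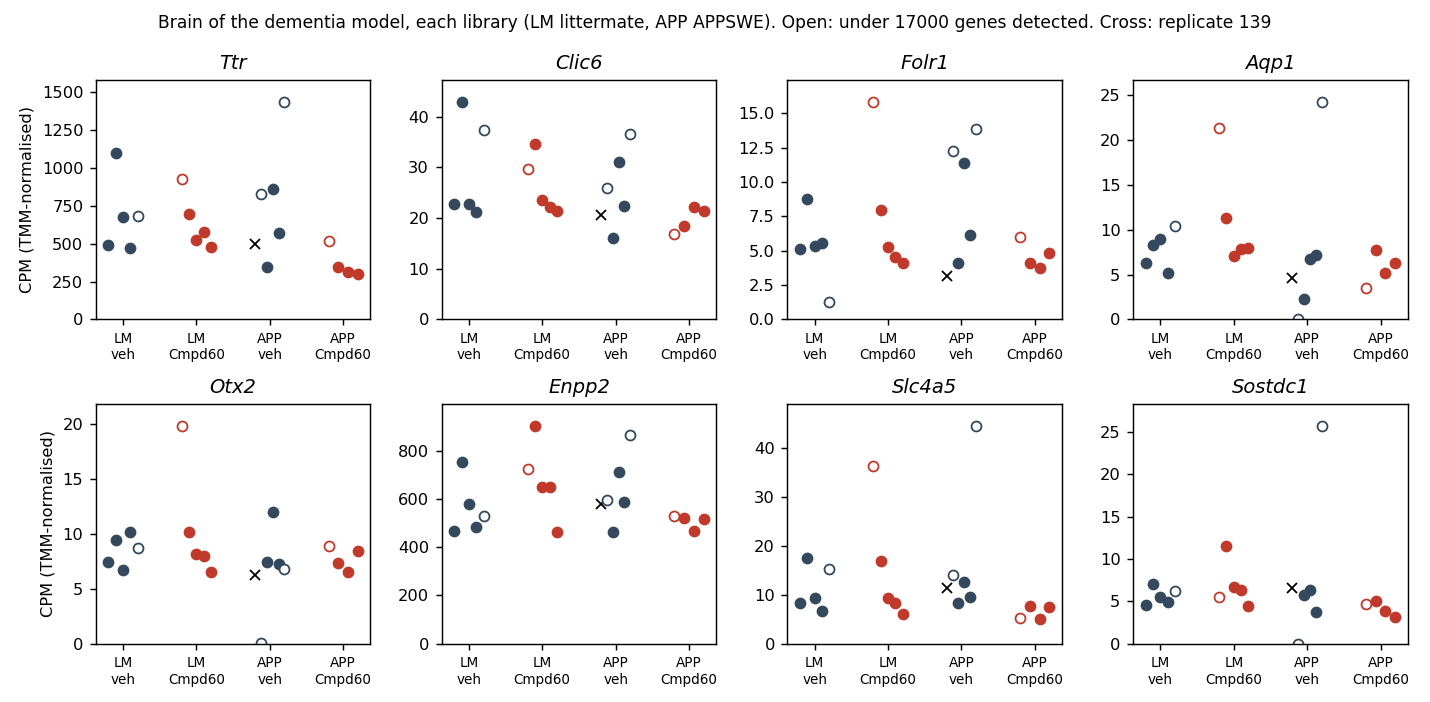
Each choroid plexus gene in each brain library of the dementia model, in TMM-normalised CPM from 0, by genotype (LM littermate, APP APPSWE) and treatment; blue is vehicle, red Cmpd60, open circles are the 5 libraries with under 17000 genes detected and the cross is s139. Treated APPSWE libraries sit low for Ttr (297 to 515 CPM) and Slc4a5 (5.13 to 7.64 CPM), and an open circle is the highest of the 20 for 6 of the 8 genes.

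The genotype comparison with vehicle gave no call among the 8 with edgeR, DESeq2 or limma-voom (edgeR: 0.00862% of all genes), and no unadjusted p under 0.05 with edgeR (8.67% of all genes) or DESeq2 and 2 with limma-voom. For none of the 8 were the groups apart without overlap, against 0.638% of all genes. Ttr differed by 0.24 ± 0.26 on the log2 scale, and without the 5 libraries by -0.21. Folr1 differed by 0.87 ± 0.49 (9.52 ± 4.19 CPM in APPSWE against 5.22 ± 2.66 in littermates, adjusted p = 0.654), with 3 of 5 APPSWE brains above all littermates, and by 0.21 without the 5 libraries. With Cmpd60, all 8 genes were lower in APPSWE than in littermate brains, none called (0% of all genes), and none with groups apart without overlap (0.936% of all genes). Those at an unadjusted p under 0.05 with edgeR were 3, against 1.34% of all genes: Ttr (-0.80 ± 0.28), Enpp2 (-0.41 ± 0.16) and Slc4a5 (-1.27 ± 0.50), each at an adjusted p of 1. DESeq2 gave 3 and limma-voom 2. The 3 values without the 5 libraries were -0.84, -0.42 and -0.59. In that smaller fit 33 of the 35 other choroid plexus genes were lower and 2 higher, none called. Their median was -0.35, against -0.01 over all genes. The share of all genes that were lower was not counted in this comparison. This comparison and the treatment effect in APPSWE brains share the same 4 treated APPSWE libraries.

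The genotype by Cmpd60 interaction asked directly whether the response differed. All 8 values were negative with edgeR, while limma-voom gave positive ones for Aqp1 (2.19), Otx2 (2.16) and Sostdc1 (1.93), and Aqp1 was 0.000602 with edgeR without the 5 libraries. None of the 8 was called by edgeR, DESeq2 or limma-voom (0% of all genes by edgeR), and 4 members had an unadjusted p under 0.05 with edgeR, against 5.09% of all genes. With DESeq2 there were also 4 and with limma-voom 2. Those of edgeR were Slc4a5 (-1.91 ± 0.67, adjusted p = 0.944), Enpp2 (-0.61 ± 0.22, adjusted p = 0.944), Ttr (-1.04 ± 0.38, adjusted p = 0.944) and Folr1 (-1.56 ± 0.71, adjusted p = 0.966). Without the 5 libraries the values were -0.54 for Slc4a5 (adjusted p = 0.946), -0.45 for Enpp2 (adjusted p = 0.907), -0.63 for Ttr (adjusted p = 0.907) and -0.59 for Folr1 (adjusted p = 0.937). The 35 other choroid plexus genes gave 28 negative and 7 positive values, at a median of -0.42 against 0.01 over all genes, and without the 5 libraries 25 negative and 10 positive, at a median of -0.26.

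In the 20 brains of the dementia model, some members followed Ttr more closely than others. With Ttr, r was 0.828 for Slc4a5 (rho = 0.863, permutation p = 1e-05, adjusted p = 0.0776), 0.793 for Clic6 (rho = 0.829, adjusted p = 0.116), 0.788 for Enpp2 (rho = 0.863, adjusted p = 0.116) and 0.614 for Folr1 (rho = 0.713, adjusted p = 0.232). Slc4a5, Clic6 and Enpp2 ranked 2, 3 and 4 of 23272 genes. Aqp1 (r = 0.132, rho = 0.568), Sostdc1 (0.0958, rho = 0.540) and Otx2 (-0.10, rho = 0.274) did not follow by r, with adjusted p from 0.829 to 0.878. By rank, the unadjusted permutation p of rho was 0.00971 for Aqp1, 0.0150 for Sostdc1 and 0.239 for Otx2 (adjusted p 0.345 to 0.667). None passed the adjustment, and 0% of all genes did. Here too at least 5 genes at the smallest possible p (1e-05) would be needed for any to pass. Without s146 and s150, farthest from the median of Ttr, r was 0.738 for Slc4a5, 0.693 for Clic6, 0.688 for Enpp2 and 0.507 for Folr1. The r of Aqp1 turned on single libraries. It was -0.0153 without s146 and 0.712 without s140, which had 0 counts of Aqp1 and of Sostdc1. Over the 15 brains with at least 17000 genes detected, r was 0.822 for Clic6, 0.788 for Slc4a5, 0.769 for Folr1, 0.759 for Enpp2, 0.610 for Sostdc1, 0.523 for Aqp1 and 0.493 for Otx2. The median r over the 28 pairs went from 0.291 to 0.609 on leaving out those 5 brains.

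The nearest genes outside the 8 changed too. Over all 20 brains they were Bsg (r = 0.854), the immunoglobulin-family protein basigin, then Gm6851, 2510006D16Rik, Gm10076 and Gm5884 (0.781 to 0.732). Over the 15 brains they were Cldn2 (0.860), Slc2a12 (0.842), Kcne2 (0.841), Gm6851 (0.818) and Gm12231 (0.811). Cldn2 and Kcne2 were among the 5 nearest in the aged brain as well. Of the 35 other choroid plexus genes, 3 were among the 100 nearest to Ttr over all 20 brains and 6 over the 15.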

How the data were processed

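RNA-seq libraries of brain, kidney and heart were analysed as counts per gene. Per the labels, the authors selected polyadenylated RNA with a directional kit, checked reads with FastQC, trimmed with Trimmomatic 0.32, aligned with HISAT2 2.1.0 and counted with HTSeq 0.11.0; the genome build is not given in the sources used here. The deposited counts were whole numbers for 54232 Ensembl genes per library, of which 32651 matched a symbol, and 5 summary lines (15.4 to 22.1% of all counts) were left out. Exon lengths came from GENCODE vM1. A gene was tested where 3 or more of the fitted libraries each held over 2 counts of it, with edgeR 4.0.16 (R 4.3.3; TMM, quasi-likelihood, Benjamini-Hochberg over all genes, threshold 0.05), each aged tissue on its own, the dementia model as 19 libraries in 4 groups, and brain against kidney over 34. CPM were TMM-normalised, within a tissue except where organs were compared. Correlations used log2 CPM with a prior count of 2. DESeq2 1.42.0 and limma 3.58.1 (voom), other filters and scalings, covariates and libraries left out were alternatives. Scripts were tested on simulated data. The members and gene lists were chosen with earlier results of these data known. The list of hepatocyte markers, the limit of 17000 genes detected and the genes-detected covariate in kidney were added after values were seen. Named genes were all 8 members, listed genes past the threshold (at most 4 a list, of highest CPM) and the 5 genes nearest to Ttr; the 4 listed genes under an unadjusted p of 0.05 in the aged brain, and Alb, Cyp2e1, Fgb, Apoc3, Apoa1 and Serpina1a in kidney, were named after their values were seen. Per the study, the mice were single housed. Nothing states that libraries came from separate extractions, so p-values measure the spread between these libraries. Nominal intervals of differences are a normal approximation from the SE, and are narrower than the edgeR test would give. Counting intervals and floors cover counting error only.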

Additional observations from a re-analysis of the deposited data

Results flagged for a closer look

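Single libraries far from the rest of their group were sought in 77 groups of 4 to 6 values of the 8 genes, with a test that flags about 1 group in 20 by chance, and 12 were found. In brain, Clic6 was 34.2 CPM in aged vehicle replicate 32, next to 26.0. In the dementia model, Slc4a5 was 44.6 CPM (next 14.1) and Sostdc1 25.7 CPM (next 6.39) in APPSWE vehicle library s146, and Otx2 was 19.9 CPM (next 10.2) in littermate Cmpd60 library s152. Both libraries are among the 5 with the fewest genes detected. In kidney, vehicle replicate 49 stood low for Ttr, at 29.2 CPM (next 50.5), and for Clic6, at 0.61 CPM (next 1.42), and treated replicate 54 stood high for Clic6, at 5.52 CPM (next 2.38). Without replicate 54 the kidney difference of Clic6 was 0.14. Without replicate 49 the kidney difference of Ttr was -1.57 on the log2 scale. In heart, vehicle replicate 62 stood high for Clic6, at 6.93 CPM (next 1.46), and for Slc4a5, at 0.757 CPM (next 0.12), and vehicle replicate 64 stood low for Enpp2, at 20.6 CPM (next 26.0). Treated heart replicate 68 held the only counts of its group for Otx2, 0.0276 CPM, and Slc4a5, 0.0552 CPM.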

How the results depend on the processing

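Of the 2709 values recomputed for the members, 2317 single-gene values and 318 counts of members called kept their direction and their side of the threshold, 70 single-gene values changed sign, 2 gained significance and 2 counts moved. No paired analysis was possible because each library carries its own number and groups share none. The kidney call of Ttr held in every alternative run. Ttr in the APPSWE treatment comparison was called with no filter on low counts (1 member called in place of 0, adjusted p = 0.00617). Members called for likeness to Ttr in the dementia model ran from 0 to 1 over libraries left out, the 1 being Slc4a5 without s143 (adjusted p = 0.0465). With all 20 libraries, the permutation p of Slc4a5 was already the smallest possible, 1e-05. Whether it is called thus also depends on how many other genes reach that p. DESeq2 gave no adjusted p for Ttr, Folr1 and Sostdc1 in heart, which were left out. The causes were not tested.

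In the aged brain, Slc4a5 changed sign with limma-voom (-0.0375) and with the level of other choroid plexus genes as a term (-0.00357), and Folr1 (-0.52), Enpp2 (-0.41) and Slc4a5 (-0.85) did with detected gene number as a term. Over libraries left out, Clic6 ran from -0.20 to 0.11, Otx2 from -0.22 to 0.0107 and Slc4a5 from -0.14 to 0.30, lowest without replicate 38 and highest without 34. The brain minus kidney response ran from -0.33 to 0.12 for Slc4a5 and from -0.36 to 0.0573 for Sostdc1, highest without replicate 34, and in heart Clic6 ran from -1.28 to 0.37 and Sostdc1 from -0.13 to 0.53, highest without replicate 62.

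In the dementia model, limma-voom turned Aqp1 and Sostdc1 to 2.63 and 2.12 for treatment in APPSWE and to -2.97 and -2.51 for genotype with vehicle, and turned Aqp1, Otx2 and Sostdc1 to 2.19, 2.16 and 1.93 for the interaction. Detected gene number as a term turned Ttr in littermates to 0.0574 and Aqp1 for genotype with vehicle to -0.10, and s139 counted as vehicle turned the latter to -0.0568. Without the 5 libraries of fewest genes, treatment in APPSWE was 0.24 for Aqp1 and -0.26 for Otx2, treatment in littermates -0.19 for Folr1, -0.0346 for Otx2 and -0.0469 for Slc4a5, genotype with vehicle -0.21 for Ttr, -0.41 for Aqp1, 0.0734 for Otx2, -0.0531 for Slc4a5 and -0.0719 for Sostdc1, and the interaction 0.000602 for Aqp1. Over libraries left out, treatment in APPSWE ran from -0.83 (without s140) to 0.49 (without s146) for Aqp1, -1.30 to 0.0899 for Sostdc1 (the same libraries) and -0.10 (without s140) to 0.54 for Otx2. Treatment in littermates ran from -0.26 to 0.14 for Ttr and -0.17 to 0.63 for Slc4a5 (lowest without s152, highest without s150), -0.28 to 0.0143 for Clic6 (highest without s150) and -0.0440 to 0.45 for Otx2 (lowest without s152). Genotype with vehicle ran from -0.0734 to 0.47 for Ttr, -0.31 to 0.0122 for Clic6 and -0.0422 to 0.83 for Slc4a5 (lowest without s146, highest without s150), and from -0.95 to 0.37 for Aqp1 and -0.52 to 0.87 for Sostdc1 (lowest without s146, highest without s140). The interaction ran from -0.42 to 0.26 for Otx2. For likeness to Ttr, Otx2 turned to 0.274 as rho, 0.180 on CPM and 0.493 without the 5 libraries, Aqp1 (-0.0622) and Sostdc1 (-0.18) turned without s146 and s150, and over libraries left out Aqp1 ran from -0.0153 to 0.712, Otx2 from -0.17 to 0.383 and Sostdc1 from -0.11 to 0.719.

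Counts of all genes called moved more than 1.5-fold. DESeq2 called 401 in the aged brain (edgeR 5), 429 in kidney (62), 746 in heart (229), 260 for the brain minus kidney response (24), 16 for treatment in APPSWE (0), 4 in littermates (0), 21 for genotype with vehicle (2) and 4 for the interaction (0). With no filter on low counts 102 were called in the aged brain, 94 in kidney, 8 in APPSWE, 2 in littermates and 2 for the interaction. With detected gene number as a term 0 were called in the aged brain and 38 in kidney. Over libraries left out the count ran from 1 to 372 in the aged brain, 20 to 131 in kidney, 36 to 247 in heart and 15 to 94 for the response, and limma-voom called 2, 70, 245 and 58 in these 4 comparisons. Without the 5 libraries 3 were called in APPSWE, 1 in littermates, 7 for genotype with vehicle and 5 for genotype with Cmpd60, and with only the groups compared 1 in APPSWE. The lowest levels rest on few counts: heart held 171 counts of Ttr in all, and members below 1 CPM there had wide errors.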
